A study of Mus musculus with 8 samples.

Results

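Endoplasmic reticulum (ER) chaperones and unfolded protein response (UPR) genes were followed across the 4 groups of the study through 10 genes chosen by name: Hspa5, Hsp90b1, Calr, Pdia4, Pdia6, Dnajb9, Sdf2l1, Creld2, Herpud1 and Xbp1. The choice was made with earlier results of these data known, so counts of these genes against all genes are no independent test. All 10 were among the 56748 genes listed, and all 10 were among the 11818 genes tested, which were those with 1 FPKM or more in 2 or more libraries. FPKM scales the fragments counted for each gene to its length and to the size of the library, so it can be set side by side between genes. RNA came from 32D cells, a mouse myeloid progenitor line that needs interleukin-3 (IL-3). All cells carried murine Jak2, either wild-type (Jak2WT) or with the activating V617F change of myeloproliferative neoplasms (Jak2V617F).

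In each background, GLUT1/3 WT clones were set against GLUT1/3 double knockout (dKO) clones made with CRISPR-Cas9 against Slc2a1 (GLUT1) and Slc2a3 (GLUT3), the glucose transporters. The groups were thus Jak2WT GLUT1/3 WT, Jak2WT GLUT1/3 dKO, Jak2V617F GLUT1/3 WT and Jak2V617F GLUT1/3 dKO, each with clones 1 and 3. Each library was 1 clone, kept for 24 h in RPMI-1640 medium without pyruvate, in which glucose was held at 5 mM and glutamine at 1 mM, with 10% serum and 2 ng/ml IL-3. The groups are single-cell-derived clones of 1 line, so differences between clones that arose before or during the knockout cannot be told apart from the genotype. Within each background, the paper lists the same GLUT1 deletion for all dKO clones, so these may not be independent knockouts. With 2 clones a group, a two-sided exact permutation test cannot go below p = 0.33, and the p-values given here rest on a spread that all 8 libraries shared.

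The lumen of the ER is where secreted and membrane proteins are folded, given their N-linked glycans and joined by disulfide bonds. Hspa5 (BiP, Grp78) and Hsp90b1 (Grp94) are its main ATP-driven chaperones, Calr is a chaperone that binds glycans, and Pdia4 and Pdia6 are disulfide isomerases. When unfolded proteins build up, the sensors IRE1 (Ern1), PERK (Eif2ak3) and ATF6 start the UPR, which raises the transcription of chaperones and of genes for the disposal of misfolded proteins. IRE1 acts by splicing the mRNA of Xbp1, a transcription factor, and PERK acts by phosphorylating the initiation factor eIF2α, the entry point of the integrated stress response. Low glucose is a classical trigger, from which the glucose-regulated proteins Grp78 and Grp94 have their names.

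Several promoters of these genes hold a short element, the ER stress response element (ERSE), through which ATF6 and NF-Y are known to act, and it is shown here because 5 of the 10 genes share it. The RefSeq promoter table (250 bases before to 50 bases after the annotated start, build GRCm38.p6) held all 10 genes, and each promoter matched 1 place of GRCm39, the build of the deposited values. Both strands were searched for exact letters: CCAAT and CCACG with 9 bases between them for ERSE, ATTGG and CCACG with 1 base between them for ERSE-II, and TGACGTGG for the UPR element (UPRE). The word CCACG is common to ERSE and ERSE-II, and its reverse complement CGTGG is the end of the UPRE. ERSE was found in 39 of 32851 promoters (0.119%), among them those of Hspa5, Hsp90b1, Calr, Pdia6 and Creld2. ERSE-II was found in 12 promoters (0.0365%), among them that of Herpud1, and the UPRE letters in 222 (0.676%), with 0 of the 10 genes among them. The matches are shown 5′ to 3′ on the strand of the gene, with 10 bases on each side, and the motif words are in capitals. A match written CGTGG and ATTGG is the ERSE on the opposite strand.
Hspa5, chr2:34662027-34662065, + strand: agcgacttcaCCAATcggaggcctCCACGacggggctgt
Hsp90b1 far match, chr10:86541492-86541530, - strand: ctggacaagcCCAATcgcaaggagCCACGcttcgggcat
Hsp90b1 near match, chr10:86541387-86541425, - strand: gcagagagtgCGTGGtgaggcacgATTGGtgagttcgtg
Calr, chr8:85573694-85573732, - strand: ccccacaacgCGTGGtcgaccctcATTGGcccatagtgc
Pdia6, chr12:17316482-17316520, + strand: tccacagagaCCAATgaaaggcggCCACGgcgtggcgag
Creld2, chr15:88703713-88703751, + strand: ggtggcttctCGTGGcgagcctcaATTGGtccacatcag
Herpud1 (ERSE-II), chr8:95112995-95113025, + strand: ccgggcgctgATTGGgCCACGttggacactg

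The ERSE of Hspa5 began 65 bases before the RefSeq start, that of Pdia6 98 bases before it, that of Creld2 126 and that of Calr 162. Hsp90b1 held 2 matches, which began 212 and 107 bases before the start, on opposite strands. The map of motif positions shows that all 7 matches lay upstream of the RefSeq start. The annotation of the deposited values starts Hspa5 earlier, at chr2:34661982, so its match lies downstream of that start. No match was found for Pdia4, Sdf2l1, Dnajb9 and Xbp1, which says only that these exact letters are not in the 300-base window. For Dnajb9 that window lay within the gene as annotated in the deposited values (chr12:44252342-44257109). Sequence upstream of that gene start was not searched. Outside the 10 genes, ERSE letters were found for Canx, Dnajc3 and Ero1b among other ER folding genes, for Derl3 and Syvn1 among genes of ER-associated degradation, and for Alg12 of N-glycan assembly. Dnajb11, a co-chaperone of Hspa5, held ERSE-II. The genes were chosen as members of this pathway, so these counts describe them and are no test.

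**Figure D1:**
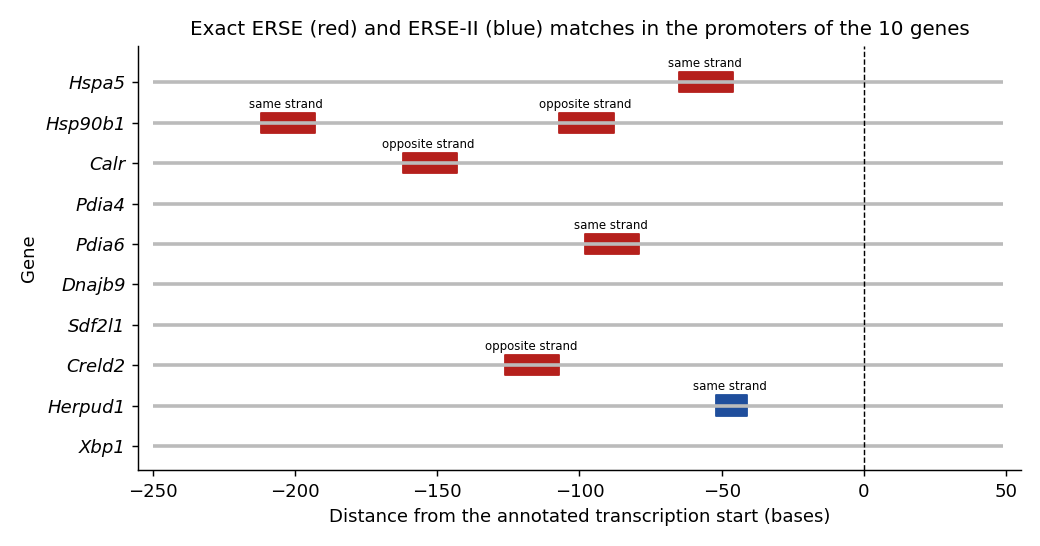
Exact motif matches in the promoters of the 10 genes. The x axis is the distance from the RefSeq transcription start in bases, each grey line is 1 promoter, red blocks are ERSE and blue blocks ERSE-II, with the strand relative to the gene above each block. The 7 matches begin between 212 and 52 bases before the start.

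The targeted genes followed the labels. Slc2a1 stood at 44.7 and 48.4 FPKM in the Jak2WT GLUT1/3 WT clones and at 9.47 and 9.17 in the dKO clones, and at 64.0 and 53.0 against 17.3 and 12.7 in Jak2V617F. Slc2a3 stood at 97.7 and 91.9 against 16.0 and 49.5 in Jak2WT, where the difference did not pass the test (limma, adjusted p = 0.0612), and at 198.5 and 166 against 48.2 and 23.8 in Jak2V617F. Reads on genes ranged from 16846011 to 48884329 per library, and 531 to 161646 reads fell on 1 of the 10 genes in 1 library. For the genes with the fewest reads, counting error can be as large as the spread between clones of a group. Of 12 markers of myeloid progenitors, 6 (Mpo, Elane, Ctsg, Kit, Cd34 and Cebpa) were under 1 FPKM in every library, while the IL-3 receptor chains Csf2rb and Csf2rb2 ranged from 48.9 to 189.9 and from 56.2 to 236 FPKM. The summed FPKM of the 12 markers was 445 to 501 in Jak2WT GLUT1/3 WT, 308 to 396 in Jak2WT dKO, 341 to 346 in Jak2V617F GLUT1/3 WT and 145 to 147 in Jak2V617F dKO. The summed FPKM of 9 erythroid markers moved with the groups, at 94.0 to 112 in Jak2WT GLUT1/3 WT, 246 to 290.5 in Jak2WT dKO, 553 to 910.3 in Jak2V617F GLUT1/3 WT and 2582 to 4679 in Jak2V617F dKO. Of these 9 markers, Alas2 and Slc4a1 were under 1 FPKM in every library, and outside Jak2WT GLUT1/3 WT the sums were mostly globin RNA. Summed markers of B and plasma cells, whose secretory types express these ER genes highly, stayed between 4.90 and 9.41 FPKM, with 10 of 11 under 1. Macrophage markers summed to 21.9 to 26.4 FPKM in Jak2V617F dKO and to 52.2 to 72.9 in the other groups, T cell markers to under 1 FPKM, and mast cell and basophil markers to 51.4 to 102 FPKM in Jak2WT and 0.338 to 2.41 in Jak2V617F. The part of these markers in the results below was not tested. In such bulk RNA, more cells in one state and more RNA per cell cannot be told apart.

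Loss of GLUT1/3 came with higher RNA of Hspa5, Hsp90b1, Calr, Pdia4, Pdia6, Sdf2l1 and Creld2 in both backgrounds, and of Dnajb9 and Herpud1 in Jak2WT, where they passed the test. Together, the 10 genes took 0.503% ± 0.0198 (SD, n = 2) of all FPKM in Jak2WT GLUT1/3 WT and 1.05% ± 0.0672 in Jak2WT dKO. In Jak2V617F they took 0.303% ± 0.0192 in GLUT1/3 WT and 0.727% ± 0.0203 in dKO. The Jak2WT dKO clones had the highest level of the 4 groups for each of the 10 genes. For 7 of them (Hspa5, Hsp90b1, Calr, Pdia4, Pdia6, Sdf2l1 and Creld2) the order was Jak2WT dKO, Jak2V617F dKO, Jak2WT GLUT1/3 WT and Jak2V617F GLUT1/3 WT, with no overlap between neighbours. Herpud1, Dnajb9 and Xbp1 each had an order of their own. How many of all genes tested had such orders, or were highest in Jak2WT dKO, was not counted. These orders therefore only describe the 10 genes.

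**Figure D2:**
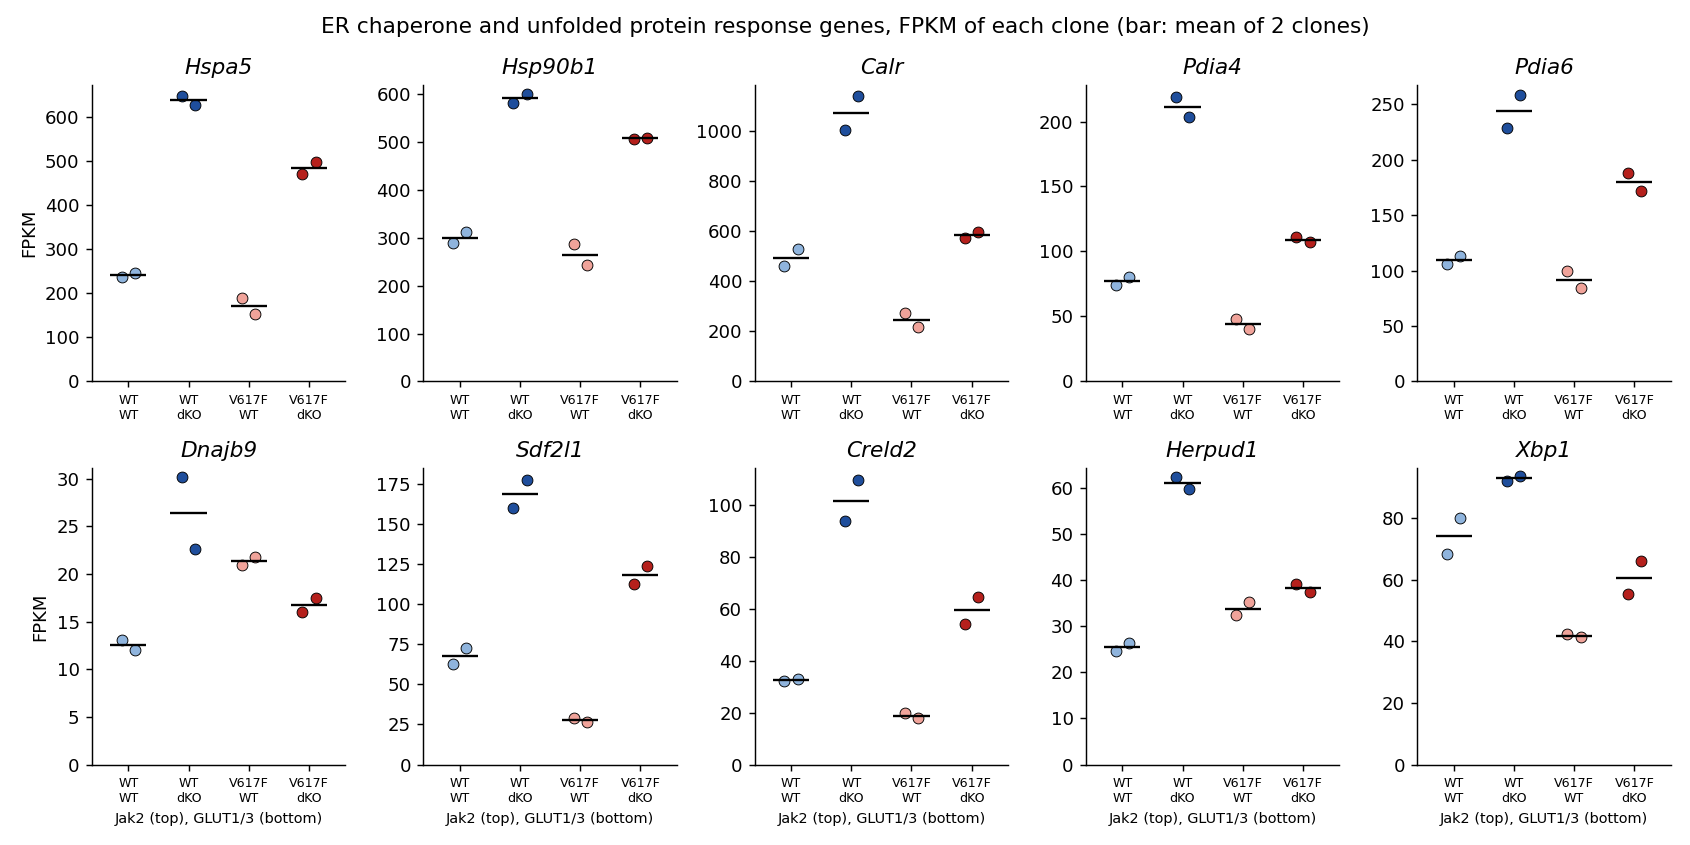
FPKM of the 10 genes in each of the 8 libraries. Each panel is 1 gene with its own y axis from 0, points are clones 1 (left) and 3 (right) of a group, bars are means of 2 clones, light and dark blue are Jak2WT GLUT1/3 WT and dKO, and light and dark red are Jak2V617F GLUT1/3 WT and dKO. Jak2WT dKO is highest in every panel, and Dnajb9 is the gene for which Jak2V617F dKO lies below Jak2V617F GLUT1/3 WT.

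Hspa5, the central ER chaperone and the protein that holds the sensors inactive, stood at 238 and 247 FPKM in the Jak2WT GLUT1/3 WT clones and at 649 and 629 in the dKO clones. In Jak2V617F it stood at 189.5 and 152 in GLUT1/3 WT and at 472 and 499.6 in dKO. In each background the dKO clones lay above the range of the GLUT1/3 WT clones, by 2.64 and 2.84 times on the means. On the log2(FPKM + 1) scale the differences were 1.40 (SE 0.112, limma, adjusted p = 0.00165) and 1.51 (adjusted p = 0.00039). Hspa5 thereby moved from rank 152 to rank 56 of all listed genes by mean FPKM in Jak2WT, and from 249 to 76 in Jak2V617F.

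Hsp90b1, the ER member of the Hsp90 family, stood at 289 and 313 FPKM in Jak2WT GLUT1/3 WT and at 583 and 602 in dKO. In Jak2V617F the values were 286 and 243.5 against 507 and 509. The dKO clones were higher in both backgrounds, by 0.98 (SE 0.0995, limma, adjusted p = 0.00373) and 0.94 (adjusted p = 0.00103) on the log2 scale. The GLUT1/3 WT clones of both backgrounds lay close together, with means of 301 ± 17.1 and 265 ± 30.4 FPKM (SD, n = 2).

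Calr, the lectin chaperone that retains glycoproteins until they are folded, was the most abundant of the 10 genes in Jak2WT. It stood at 459.9 and 527 FPKM in Jak2WT GLUT1/3 WT and at 1003 and 1139 in dKO. In Jak2V617F it was lower in both states, at 275 and 219.5 in GLUT1/3 WT and 572 and 598 in dKO. The dKO differences were 1.12 (SE 0.133, limma, adjusted p = 0.00576) in Jak2WT and 1.25 (adjusted p = 0.00109) in Jak2V617F. The Jak2WT call was lost without Jak2WT GLUT1/3 WT clone 1 (1.02, adjusted p = 0.0529).

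The disulfide isomerases Pdia4 and Pdia6 rose in both backgrounds. Pdia4 stood at 73.9 and 80.4 FPKM in Jak2WT GLUT1/3 WT and at 219 and 203 in dKO, a ratio of 2.74 on the means. In Jak2V617F its values were 48.4 and 40.3 against 111 and 107, a ratio of 2.46. Its log2 differences of 1.44 (SE 0.106, limma, adjusted p = 0.00126) and 1.29 (adjusted p = 0.000496) placed it 42nd and 159th among the 11818 genes tested. Pdia6, which also trims the activity of the sensor IRE1, stood at 106 and 113 FPKM against 228 and 259 in Jak2WT. Its values in Jak2V617F were 99.2 and 84.5 against 188 and 172. Its differences were 1.14 (SE 0.111, limma, adjusted p = 0.00334) and 0.97 (adjusted p = 0.00135), and the groups did not overlap in either background.

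Sdf2l1, which works with Hspa5 and its co-chaperones in the ER lumen, had the widest range of the 10 genes, 6.74 times between its highest and lowest library. It stood at 62.7 and 72.5 FPKM in Jak2WT GLUT1/3 WT and at 159.8 and 177 in dKO. In Jak2V617F it stood at 29.2 and 26.3 in GLUT1/3 WT and at 113 and 124 in dKO. The rise was 1.31 (SE 0.108, limma, adjusted p = 0.00177) in Jak2WT and 2.05 (adjusted p = 0.000354) in Jak2V617F, where it ranked 26th of 11818 genes. The difference between both rises was tested and was 0.75 (SE 0.153, adjusted p = 0.029). That call did not hold without the filter on low values (adjusted p = 0.0791). It was lost in 7 of 8 fits that left out 1 clone (adjusted p of up to 0.112, without Jak2WT dKO clone 1), and was kept only without Jak2V617F dKO clone 1.

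Creld2, an ER-resident protein with disulfide isomerase activity, stood at 32.2 and 32.8 FPKM in Jak2WT GLUT1/3 WT and at 93.7 and 109.6 in dKO. In Jak2V617F it stood at 19.8 and 18.0 against 54.3 and 64.5. Its ratios of mean FPKM were nearly alike, 3.13 in Jak2WT and 3.15 in Jak2V617F. The log2 differences were 1.61 (SE 0.115, limma, adjusted p = 0.00117) and 1.60 (adjusted p = 0.000383), the largest of the 10 genes in Jak2WT.

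Dnajb9 and Herpud1 did not follow this course in Jak2V617F. Dnajb9 (ERdj4), a co-chaperone of Hspa5 that represses IRE1, stood at 13.1 and 12.0 FPKM in Jak2WT GLUT1/3 WT and at 30.2 and 22.6 in dKO. In Jak2V617F it already stood at 20.9 and 21.7 in GLUT1/3 WT, and at 16.0 and 17.5 in dKO. Its difference was 1.00 (SE 0.133, limma, adjusted p = 0.0074) in Jak2WT and -0.33 (95% interval -0.64 to -0.019, adjusted p = 0.101) in Jak2V617F. The Jak2WT call was lost without either Jak2WT GLUT1/3 WT clone (adjusted p = 0.0529 and 0.0575), and the lower value in Jak2V617F passed without either Jak2WT dKO clone (adjusted p = 0.0419). The interaction was -1.33 (SE 0.188, limma, adjusted p = 0.013), which ranked 99th from the bottom of 11818 genes. It did not pass without Jak2WT GLUT1/3 WT clone 1 (-1.39, adjusted p = 0.0539) or clone 3 (-1.28, adjusted p = 0.0667).

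Herpud1, a membrane protein of ER-associated degradation, stood at 24.7 and 26.5 FPKM in Jak2WT GLUT1/3 WT and at 62.5 and 59.8 in dKO. In Jak2V617F the values were 32.4 and 35.3 against 39.1 and 37.5, so that the groups were apart by a small step. The difference was 1.23 (SE 0.0813, limma, adjusted p = 0.00086) in Jak2WT and 0.18 (95% interval -0.015 to 0.37, adjusted p = 0.144) in Jak2V617F, where it passed with voom on recovered reads (0.27, adjusted p = 0.0452). The interaction was -1.05 (SE 0.115, limma, adjusted p = 0.00867), and was lost without Jak2WT GLUT1/3 WT clone 3 (-1.10, adjusted p = 0.0522).

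Xbp1, the transcription factor whose mRNA IRE1 splices, stood at 68.3 and 80.0 FPKM in Jak2WT GLUT1/3 WT and at 92.1 and 93.5 in dKO. In Jak2V617F it stood at 42.3 and 41.2 against 55.2 and 66.0. The difference in Jak2WT, 0.32 (95% interval 0.063 to 0.59), did not pass the test (limma, adjusted p = 0.0952), and that in Jak2V617F did (0.52, SE 0.112, adjusted p = 0.0132). Without Jak2V617F GLUT1/3 WT clone 3 the latter was 0.50 (adjusted p = 0.0535), and in a fit of the compared groups alone it was 0.52 (adjusted p = 0.0525). The interaction was not called (0.20, 95% interval -0.17 to 0.57, limma, adjusted p = 0.439). FPKM per gene does not separate spliced from unspliced Xbp1 mRNA, so splicing is not analysed here.

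In Jak2WT, 9 of the 10 genes were called higher in dKO by limma, against 7.62% of all genes tested, and Xbp1 was not. Their median difference was 1.19, against 0.0082 over all genes. For all 10 genes the 2 dKO clones lay above the range of the GLUT1/3 WT clones, as they did for 34.1% of all genes. The count was 7 without Jak2WT GLUT1/3 WT clone 1, a fit that called 110 genes in all. In Jak2V617F, 8 of the 10 genes were called higher, against 13.7% of all genes tested, with a median of 1.11 against -0.0195 over all genes. Here the dKO clones lay above that range for 9 genes (29.9% of all genes) and below it for Dnajb9 (34.4% of all genes). Called lower were 0 of the 10 genes in either background, against 6.06% of all genes in Jak2WT and 16.2% in Jak2V617F. In Jak2WT all 10 differences were positive, and in Jak2V617F 1 gene was lower at an unadjusted p under 0.05 (Dnajb9) and 0 were called lower with voom. Called higher in both backgrounds were 317 genes (2.68%), 7 of the 10 among them. Called and at least 2-fold higher on the means in both were 76 genes (0.643%), among them Hspa5, Calr, Pdia4, Sdf2l1 and Creld2. In each background alone, 1.83% (Jak2WT) and 4.13% (Jak2V617F) of all genes met that rule.

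**Figure D3:**
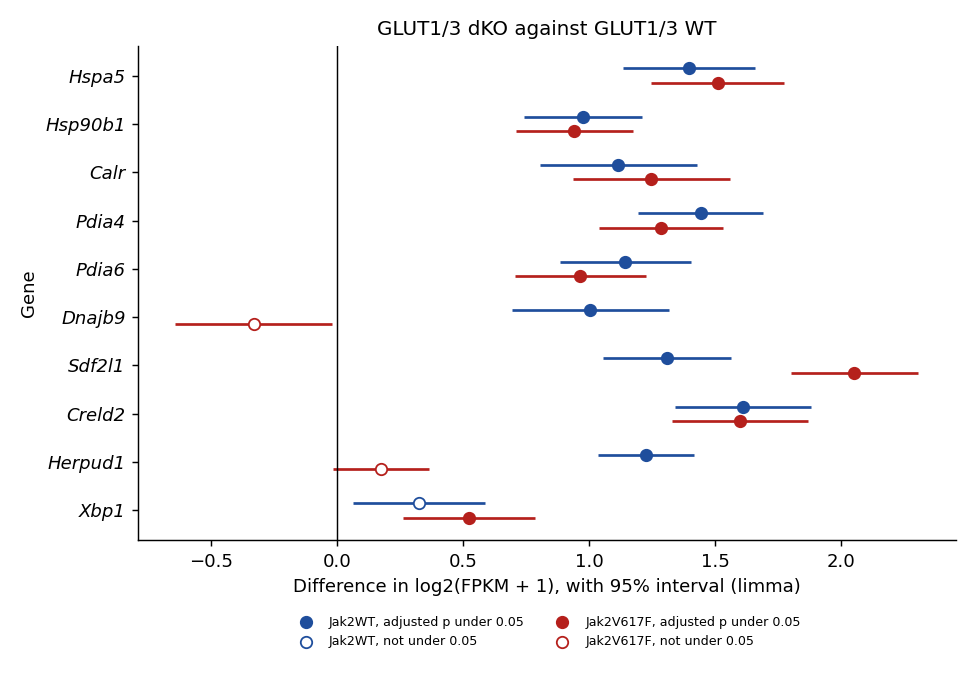
Difference between GLUT1/3 dKO and GLUT1/3 WT for the 10 genes. The x axis is the difference in log2(FPKM + 1) with its 95% interval from limma, blue is Jak2WT and red Jak2V617F, and filled points have an adjusted p under 0.05. For 7 genes both points are filled and lie between 0.94 and 2.05, while the red points of Dnajb9 (-0.33) and Herpud1 (0.18) are open and lie far to the left of the blue ones (1.00 and 1.23).

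The interaction test asked whether the dKO difference itself differed between the backgrounds. It called 3 of the 10 genes, Sdf2l1 higher (against 4.72% of all genes) and Dnajb9 and Herpud1 lower (against 5.91%). Without Jak2WT GLUT1/3 WT clone 3 it called 0 of the 10 genes and 5 genes in all. Without Jak2WT GLUT1/3 WT clone 1 it called 1 of the 10 genes (Herpud1) and 68 in all, and without Jak2WT dKO clone 1 it called 63 in all. For Hspa5 the interaction was 0.11 (95% interval -0.26 to 0.49, limma, adjusted p = 0.672). For Creld2 it was -0.013 (95% interval -0.40 to 0.37, limma, adjusted p = 0.968) and for Hsp90b1 -0.035 (95% interval -0.36 to 0.29, adjusted p = 0.896). Across the 7 genes that were not called, adjusted p ranged from 0.439 to 0.968. These intervals leave room for moderate differences between the backgrounds in either direction.

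Jak2V617F clones had less RNA of most of these genes than Jak2WT clones with intact transporters. Among GLUT1/3 WT clones, 6 of the 10 genes were called lower in Jak2V617F by limma (against 14.9% of all genes tested) and 2 were called higher (against 15.3%). Their median difference was -0.63, against 0.0076 over all genes. Lower were Sdf2l1 (-1.25, adjusted p = 0.000535), Calr (-0.999, adjusted p = 0.00241), Xbp1 (-0.81, adjusted p = 0.00264), Pdia4 (-0.79, adjusted p = 0.00243), Creld2 (-0.75, adjusted p = 0.00387) and Hspa5 (-0.51, adjusted p = 0.014). On the means this was 0.411 times for Sdf2l1 and 0.501 times for Calr. Higher were Dnajb9 (0.72, limma, adjusted p = 0.00737) at 1.70 times and Herpud1 (0.39, limma, adjusted p = 0.0115) at 1.32 times.

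The groups did not overlap for any of the 10 genes in this comparison, 8 below and 2 above, as for 33.6% and 35.8% of all genes. Hsp90b1 (-0.19, 95% interval -0.42 to 0.048, limma, adjusted p = 0.197) and Pdia6 (-0.25, 95% interval -0.51 to 0.0051, limma, adjusted p = 0.123) were not called. Both passed when libraries were scaled to the same summed FPKM (-0.34, adjusted p = 0.0099, and -0.41, adjusted p = 0.0151) and with voom. Under that scaling Herpud1 was not called (0.24, adjusted p = 0.0638). The call of Hspa5 was lost without Jak2WT GLUT1/3 WT clone 1 or 3 (adjusted p = 0.0629 and 0.0856) and without the filter on low values (0.0625). The call of Herpud1 was lost without Jak2WT GLUT1/3 WT clone 1 (adjusted p = 0.0855) and Jak2V617F GLUT1/3 WT clone 3 (0.0507), and that of Dnajb9 without Jak2WT GLUT1/3 WT clone 3 (0.0536).

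After loss of GLUT1/3, most of the 10 genes were again lower in Jak2V617F than in Jak2WT. Among dKO clones, 8 of the 10 genes were called lower in Jak2V617F by limma (against 9.96% of all genes tested), 0 were called higher (against 7.12%), and all 10 had both clones below (33.1% of all genes). The median difference was -0.61, against -0.0231 over all genes. The largest differences were those of Pdia4 (-0.95, limma, adjusted p = 0.00204), Calr (-0.87, adjusted p = 0.00633) and Creld2 (-0.77, adjusted p = 0.0059). Herpud1 (-0.66, limma, adjusted p = 0.0029), Dnajb9 (-0.61, adjusted p = 0.0212), Xbp1 (-0.61, adjusted p = 0.0118), Sdf2l1 (-0.51, adjusted p = 0.0203) and Pdia6 (-0.43, adjusted p = 0.0372) followed. Dnajb9 and Herpud1 thus lay above the Jak2WT level with intact transporters and below it without them. Hspa5 (-0.40, 95% interval -0.66 to -0.13, limma, adjusted p = 0.0517) and Hsp90b1 (-0.22, 95% interval -0.45 to 0.013, adjusted p = 0.177) were not called.

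This comparison was the one in which calls moved most. Hspa5 passed under several settings, with adjusted p of 0.0134 with voom and 0.0497 with a filter on mean FPKM. Fewer of these ER genes were called lower without Jak2WT dKO clone 1 or 3, or without Jak2V617F dKO clone 1. These fits also called fewer genes in all than the fit of all libraries. Calr, Pdia4, Creld2 and Herpud1 kept their calls without Jak2WT dKO clone 1. Over the fits that left out 1 clone, the median difference of these ER genes ranged from -0.65 to -0.53. Pdia6 also lost its call without either Jak2WT GLUT1/3 WT clone and without Jak2V617F dKO clone 3, and its difference ranged from -0.52 to -0.34 over all alternatives. In a limma fit of the compared groups alone, Pdia6 (-0.43, adjusted p = 0.0697) and Dnajb9 (-0.61, adjusted p = 0.0738) were not called.

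**Figure D4:**
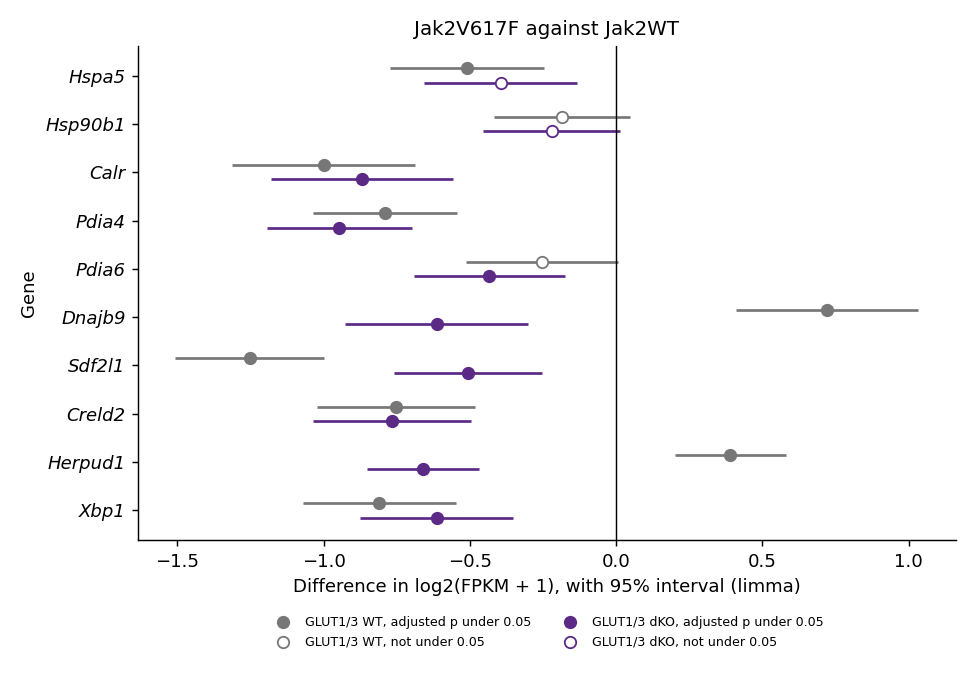
Difference between Jak2V617F and Jak2WT for the 10 genes. The x axis is the difference in log2(FPKM + 1) with its 95% interval from limma, grey is the comparison among GLUT1/3 WT clones and purple that among dKO clones, and filled points have an adjusted p under 0.05. All purple points lie below 0, and the grey points of Dnajb9 (0.72) and Herpud1 (0.39) lie above it.

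Levels over the 8 libraries show the same split. Pearson r with Hspa5 on log2(FPKM + 1) was 0.992 for Hsp90b1, 0.985 for Pdia6, 0.983 for Creld2, 0.968 for Sdf2l1, 0.960 for Pdia4 and 0.931 for Calr. It was 0.763 for Herpud1, 0.732 for Xbp1 and 0.358 for Dnajb9. Outside the 10 genes, the 5 genes most like Hspa5 were Manf (0.997), AI662270 (0.997), Mat2a (0.993), Dnajb11 (0.993) and Pdia3 (0.992). Manf is a secreted factor that binds Hspa5, Dnajb11 is a co-chaperone of Hspa5, Pdia3 is the disulfide isomerase that works with Calr, and Mat2a makes S-adenosylmethionine. These values describe 8 libraries in 4 groups, which share their group means, and no test belongs to them.

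Limma counts in related lists are read against the limma shares of all genes tested. These were 7.62% higher and 6.06% lower for dKO in Jak2WT and 13.7% and 16.2% for dKO in Jak2V617F. Many of these counts differed between limma and voom on recovered reads, so both are given. Shares of all genes by direction were not taken with voom or at an unadjusted p under 0.05. List counts under those settings therefore have no share to be read against. None of the UPR sensors and regulators was called higher in dKO. Of 13 tested genes of 16 listed, limma called 0 in Jak2WT (2 were higher at an unadjusted p under 0.05, and voom called 0 higher and 1 lower), with a median of 0.070. In Jak2V617F, 0 were called higher (0 at an unadjusted p under 0.05 and 0 with voom) and 4 lower (3 with voom), with a median of -0.13. Among the latter were the proteases that cleave ATF6, Mbtps2 (-0.87, limma, adjusted p = 0.000695) and Mbtps1 (-0.55, adjusted p = 0.00264), and the sensor Ern1 (-0.71, adjusted p = 0.0208). Among GLUT1/3 WT clones limma called 7 of 13 higher in Jak2V617F (against 15.3% of all genes), Atf6 among them (0.55, limma, adjusted p = 0.00495). It called 1 lower (against 14.9% of all genes), the sensor Eif2ak3 (-0.43, limma, adjusted p = 0.0101). With voom 4 were higher and 1 was lower. Atf6 and Eif2ak3 kept these directions among dKO clones (0.43, limma, adjusted p = 0.0201, and -0.41, adjusted p = 0.0195), where 3 genes were higher (against 7.12% of all genes) and 2 lower (against 9.96%).

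Other ER chaperones and folding enzymes were mixed. Of 29 tested genes of 36 listed, 10 were higher and 3 lower in Jak2WT dKO, and 8 were higher and 5 lower in Jak2V617F dKO, with medians of 0.28 and -0.065. With voom the counts were 11 and 4 in Jak2WT and 11 and 5 in Jak2V617F. The lower count by limma in Jak2V617F was near the limma share of all genes. Manf rose by 1.34 (limma, adjusted p = 0.00136) and 1.35 (adjusted p = 0.00039). Hyou1, the nucleotide exchange factor of Hspa5, rose by 1.15 (limma, adjusted p = 0.00126) and 1.20 (adjusted p = 0.000383). Ero1a, the oxidase that recharges disulfide isomerases, fell in both backgrounds, by 0.98 (limma, adjusted p = 0.0266) and 2.11 (adjusted p = 0.00086) on the log2 scale. P4hb, the classical disulfide isomerase, was lower in Jak2V617F dKO (-1.06, limma, adjusted p = 0.00118), with an interaction of -0.80 (adjusted p = 0.0289). Among dKO clones 17 of 29 genes were lower in Jak2V617F than in Jak2WT (against 9.96% of all genes) and 0 were higher (against 7.12%), also at an unadjusted p under 0.05 and with voom.

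Genes of ER-associated degradation were called higher in 7 of 24 cases and lower in 0 in Jak2WT dKO (1 was lower at an unadjusted p under 0.05 and 1 with voom). In Jak2V617F dKO, 5 were higher and 6 lower with limma and 7 and 5 with voom, so neither direction prevailed. Edem1, which directs misfolded glycoproteins to disposal, rose in both backgrounds (0.84, limma, adjusted p = 0.00191, and 0.67, adjusted p = 0.00104). Syvn1 (Hrd1), the ubiquitin ligase that Herpud1 joins, also rose in both (0.74, limma, adjusted p = 0.0037, and 0.50, adjusted p = 0.0033). Derl1, a channel component, was higher in Jak2V617F than in Jak2WT among GLUT1/3 WT clones (1.07, limma, adjusted p = 0.00042) and had a negative interaction (-0.75, adjusted p = 0.0156), as had Dnajb9 and Herpud1.

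The translocon and signal peptidase genes had 5 of 22 higher and 0 lower in Jak2WT dKO (0 lower at an unadjusted p under 0.05 and 0 with voom), and 2 higher and 4 lower in Jak2V617F dKO (4 and 3 with voom). Spcs3 of the signal peptidase rose in both (0.53, limma, adjusted p = 0.0127, and 0.52, adjusted p = 0.00508). Sec62 (-0.77, limma, adjusted p = 0.00457) and Srp72 (-0.63, adjusted p = 0.0022) were lower in Jak2V617F dKO. For N-glycan assembly and glucosidases, 4 of 31 were higher and 0 lower in Jak2WT dKO (2 lower at an unadjusted p under 0.05 and 2 with voom), and 3 were higher and 6 lower in Jak2V617F dKO (5 and 4 with voom). The balance in Jak2V617F thus turned with the method in both lists, and the limma counts there were near the limma shares of all genes. Ddost of the oligosaccharyltransferase rose in both backgrounds (0.37, limma, adjusted p = 0.0385, and 0.39, adjusted p = 0.0171). Tusc3 (-0.60, limma, adjusted p = 0.00575) and Alg9 (-0.59, adjusted p = 0.00858) were lower in Jak2V617F dKO. The medians of both lists lay between -0.05 and 0.26 in the dKO comparisons, against 1.19 and 1.11 for the 10 genes.

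Factors of the integrated stress response moved in the other direction in Jak2V617F. Of 17 tested genes of 20 listed, 12 were lower and 1 was higher in Jak2V617F dKO, with a median of -0.64, and with voom 11 were lower and 1 was higher. In Jak2WT dKO 4 were higher and 1 lower with limma and 3 and 5 with voom, so no direction held, with a median of -0.069. The cystine transporter Slc7a11 (-1.85, limma, adjusted p = 0.00137), the stress regulator Nupr1 (-1.81, adjusted p = 0.000463) and the mTORC1 inhibitor Ddit4 (-1.60, adjusted p = 0.000383) fell furthest. Ddit4 also fell in Jak2WT dKO (-1.16, limma, adjusted p = 0.0037), where the transcription factor Atf5 rose (1.27, adjusted p = 0.0108). Atf5 had an interaction of -2.12 (limma, adjusted p = 0.0116). Among GLUT1/3 WT clones, limma called 10 of 17 genes higher in Jak2V617F (against 15.3% of all genes), with Atf5 (1.36, limma, adjusted p = 0.00326) and Cebpb (1.20, adjusted p = 0.00357) in front. It called 0 lower (against 14.9% of all genes), while 3 were lower at an unadjusted p under 0.05 and 3 with voom.

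Chaperones of other compartments gave few calls of a higher level with limma. Of 27 tested cytosolic heat shock genes, 1 was higher in each background (1 in Jak2WT and 4 in Jak2V617F with voom), Hspa8, the constitutive Hsp70 (0.98, limma, adjusted p = 0.00575, and 0.75, adjusted p = 0.00377). None was called lower in Jak2WT by limma (0 at an unadjusted p under 0.05, 2 with voom), and 6 were lower in Jak2V617F dKO (5 with voom). Of 13 mitochondrial chaperones and proteases, 0 were called higher in either background (2 and 0 at an unadjusted p under 0.05, and 0 with voom), and 1 and 5 were lower (4 and 5 with voom). The medians of both lists lay between -0.12 and 0.058.

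**Figure D5:**
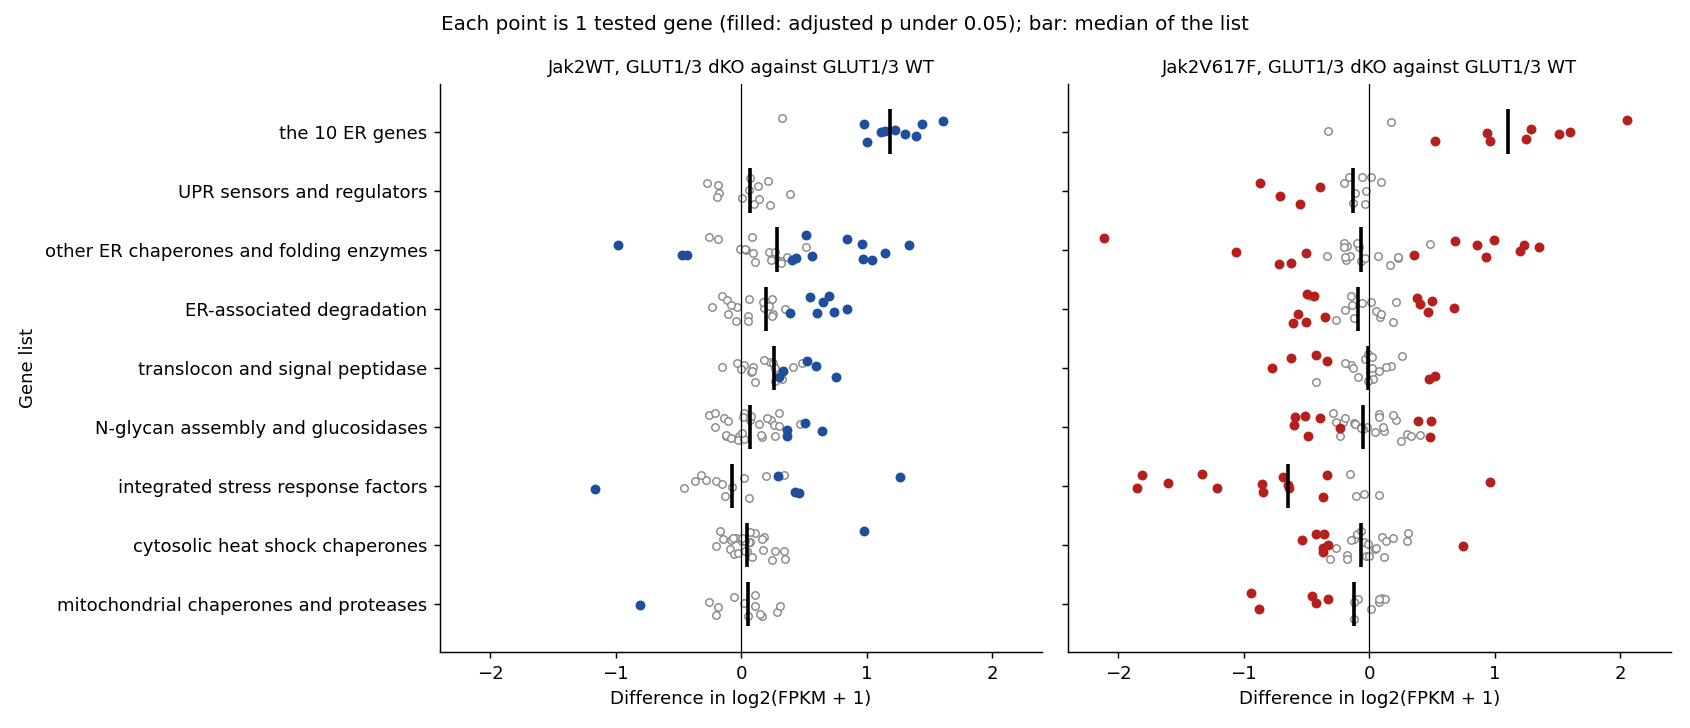
Difference between GLUT1/3 dKO and GLUT1/3 WT for the 10 ER genes and 8 related lists. The x axis is the difference in log2(FPKM + 1), the left panel is Jak2WT and the right panel Jak2V617F, each point is 1 tested gene (filled where the adjusted p of limma is under 0.05) and bars are list medians. The medians of the 10 ER genes are 1.19 and 1.11, and those of the other lists lie between -0.64 and 0.28.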

How the data were processed

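RNA was sequenced from 8 clones of 32D cells. The authors deposited FPKM per gene, made from paired-end poly(A) reads cleaned with fastp 1.0.1, aligned to mm39 (GRCm39) with HISAT2 2.2.1 and counted with featureCounts 2.0.6, as the submitters' processing notes list them. The annotation version, strand setting and library total of the FPKM are not given in the sources used here. FPKM times gene length was a whole multiple of 1 step for 100% of values above 0 (tolerance 0.01), which gave the reads per gene. The test was limma 3.58.1 (R 4.3.3) with trend on log2(FPKM + 1), one mean per group, Benjamini-Hochberg adjustment over all 11818 genes tested and a threshold of 0.05. It had 4 residual and 3.34 prior degrees of freedom, and the script was tested on simulated data. Fold changes on this scale understate those of low genes. Clones of a group differed beyond sampling noise (chi-square per gene 7.88 to 34.6). Clone numbers name clones only, so no block was used.

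The members and lists were chosen with earlier results of these data known. Named genes were the 10 members, Slc2a1, Slc2a3 and Jak2, markers, and from each list up to 3 called genes with the largest change in each direction. The genes most like Hspa5 and listed genes with an ERSE or ERSE-II match were named as well. One listed marker and one feature of the cells are not reported here. Jak2 RNA ranged from 139 to 258 FPKM. Alternatives were another pseudocount, 2 filters, 2 scalings, voom on recovered reads, robust estimates, fits of the compared groups alone, a block and leaving out each clone. Where a group keeps 1 clone, that clone is assumed to vary like the others. Promoters were searched in Python 3.11.15.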

Additional observations from a re-analysis of the deposited data

Results flagged for a closer look

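For 3 of the 10 genes, the difference between dKO and GLUT1/3 WT clones differed between the Jak2 backgrounds by the interaction test in limma. Dnajb9 had an interaction of -1.33 on the log2 scale (adjusted p = 0.013), with the dKO clones above the GLUT1/3 WT range in Jak2WT and below it in Jak2V617F. Herpud1 had -1.05 (adjusted p = 0.00867), with ratios of mean FPKM of 2.39 in Jak2WT and 1.13 in Jak2V617F, where the difference was not called (adjusted p = 0.144). Sdf2l1 had 0.75 (adjusted p = 0.029), with 2.49 and 4.26 times. Without Jak2WT GLUT1/3 WT clone 3 none of the 3 calls held, with values of -1.28 for Dnajb9 (adjusted p = 0.0667), -1.10 for Herpud1 (0.0522) and 0.64 for Sdf2l1 (0.107) and 5 genes called in all. Without Jak2WT GLUT1/3 WT clone 1, Dnajb9 (-1.39, adjusted p = 0.0539) and Sdf2l1 (0.85, adjusted p = 0.0685) were not called, with 68 genes called in all. No group had 4 or more libraries, so single clones were not tested for standing apart.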

How the results depend on the processing

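Of the single-gene values of the 10 genes under all alternatives, 686 kept their direction and side of the threshold, 43 lost a call, 14 gained one and 1 changed sign: the interaction of Hspa5, not called, was -0.0425 without Jak2V617F GLUT1/3 WT clone 3 and up to 0.272 in the other fits that left out 1 clone. In Jak2WT and in Jak2V617F the dKO differences of Hspa5, Hsp90b1, Pdia4, Pdia6, Sdf2l1 and Creld2 stayed called under every alternative run. Without the filter on low values, 714 genes were called in Jak2WT and 346 for the interaction, 5 of the 10 genes were lower in Jak2V617F dKO than in Jak2WT dKO, and 0 had a higher interaction. With libraries scaled to the same total, the medians of the 10 genes were 1.09 (dKO in Jak2WT), 1.20 (dKO in Jak2V617F) and -0.78 (Jak2V617F against Jak2WT among GLUT1/3 WT), and 1 of them was higher in the last comparison. With voom, 2615 genes were called in Jak2WT and 1908 for the interaction, and the medians were 1.21 (dKO in Jak2V617F) and -0.76 (Jak2V617F against Jak2WT among GLUT1/3 WT). Fitting the compared groups alone called 1617 genes for dKO in Jak2V617F and 1028 for Jak2V617F against Jak2WT among dKO clones.

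Leaving out 1 clone at a time gave 7 to 9 of the 10 genes higher and 0 to 0 lower for dKO in Jak2WT, with a median of 1.14 to 1.24 and 110 to 1974 genes called in all, fewest without Jak2WT GLUT1/3 WT clone 1 and at most 281 without any 1 of the 4 Jak2WT clones. For dKO in Jak2V617F it gave 7 to 8 higher and 0 to 1 lower, a median of 0.97 to 1.24 and 2131 to 2985 genes, fewest without Jak2V617F GLUT1/3 WT clone 1. For Jak2V617F against Jak2WT among GLUT1/3 WT it gave 1 to 2 higher and 5 to 6 lower, a median of -0.74 to -0.51 and 1583 to 3969 genes, fewest without Jak2WT GLUT1/3 WT clone 3 and next fewest without its clone 1. Among dKO clones it gave 0 to 0 higher and 4 to 9 lower, a median of -0.65 to -0.53 and 620 to 1992 genes, fewest without Jak2WT dKO clone 1 and next fewest without its clone 3. For the interaction it gave 0 to 1 higher, 0 to 2 lower and 5 to 1256 genes, fewest without Jak2WT GLUT1/3 WT clone 3. The causes were not tested.

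Clone numbers did not pair the clones: over 6 pairs of groups, deviations of clones with the same number correlated at -0.254 to 0.152. With a replicate block on the clone number, Pdia6 among dKO clones lost its call (-0.43, adjusted p = 0.0597) and no other call of the 10 genes changed. The number of clones limits these values, and read depth also does for the genes with the fewest reads.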
